A study of Mus musculus with 14 samples.

Results

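The nuclear-encoded subunits of the mitochondrial respiratory chain and ATP synthase were followed through the making of liver organoids from mouse fibroblasts. Members were taken by gene symbol: Nduf a, b, c, s and v genes for complex I, Sdha to Sdhd for complex II, Uqcr genes for complex III, Cox4 to Cox8 genes for complex IV and Atp5 genes for complex V, without symbols that contain -ps. This gave 84 of the 28022 genes counted, with 36 in complex I, 4 in complex II, 8 in complex III, 19 in complex IV and 17 in complex V. RNA of 7 conditions was sequenced as 14 libraries with 2 per condition, all from C57BL/6J mice as labelled. The starting cells (Fib) were embryonic fibroblasts. Induced hepatic stem cells made from fibroblasts with Oct4 and Hnf4α, delivered by a lentiviral vector, were grown on collagen-coated plates (2D-iHs). The same cells were grown on plates together with induced endothelial cells (2D-iHEs). Spheroids in a Matrigel and collagen hydrogel held the hepatic cells alone (iHLOs, labelled 3D-iHA) or with the endothelial cells (iHEAs). The endothelial cells had been converted with ETV2 from HF1, a human fibroblast line, so that 2D-iHEs and iHEAs held cells of both species and human reads could enter the counts only by aligning to the mouse genome. All 4 culture conditions were kept in a medium with oncostatin M. Adult liver came from 6-week-old mice and fetal liver from mid-gestation embryos, neither with a treatment on its label. The culture conditions thus all carried the same 2 introduced factors, which fibroblasts and livers did not.

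Complexes I and II take electrons from NADH and succinate, complex III passes them to cytochrome c, and complex IV hands them to oxygen, while complex V uses the proton gradient that results to make ATP. Complex II is also an enzyme of the citrate cycle. Hepatocytes hold many mitochondria, which serve gluconeogenesis, urea synthesis and fatty acid oxidation as well as ATP supply, whereas fetal liver is also a site of blood formation. Several complex IV subunits exist as isoforms of separate genes, of which Cox6a2, Cox7a1 and Cox8b are known from heart and skeletal muscle, Cox6b2, Cox7b2 and Cox8c from testis, and Cox4i2 from lung. The mitochondrially encoded subunits were not analysed here: 0 of their 13 genes were in the table.

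The promoters of members that changed most between plate culture and spheroids follow, because these genes carry the clearest change within the cultures. Each window runs from 250 bases before to 50 bases after the RefSeq start in GRCm38.p6 and is written along the gene's strand. Capitals mark letters that match 1 of 4 motifs searched on both strands, namely GCGCA, any base and GCGC of NRF1, CCGGAAG of the ETS factor GABPA, AAGATGGC of YY1 and AAGGTCA of the estrogen-related receptors, all factors known from promoters of mitochondrial genes. None of the 4 motifs contains another. Uqcrh (chr4:116075021-116075320, minus strand) and Sdhd (chr9:50603800-50604099, minus strand) rose in spheroids, and Uqcrc1 (chr9:108936398-108936697, plus strand) and Ndufb6 (chr4:40279372-40279671, minus strand) fell.
Uqcrh: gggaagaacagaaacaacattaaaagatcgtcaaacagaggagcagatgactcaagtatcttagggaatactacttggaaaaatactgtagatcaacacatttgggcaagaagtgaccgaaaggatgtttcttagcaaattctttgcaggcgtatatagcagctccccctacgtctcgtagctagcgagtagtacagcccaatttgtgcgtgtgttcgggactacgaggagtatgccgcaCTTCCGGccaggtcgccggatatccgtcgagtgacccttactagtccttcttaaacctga
Sdhd: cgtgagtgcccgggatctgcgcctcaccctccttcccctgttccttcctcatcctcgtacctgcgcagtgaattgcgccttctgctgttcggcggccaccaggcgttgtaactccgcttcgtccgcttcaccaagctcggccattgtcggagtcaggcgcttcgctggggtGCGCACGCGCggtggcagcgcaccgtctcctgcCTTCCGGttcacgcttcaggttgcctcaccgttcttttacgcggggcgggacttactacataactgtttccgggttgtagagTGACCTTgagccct
Uqcrc1: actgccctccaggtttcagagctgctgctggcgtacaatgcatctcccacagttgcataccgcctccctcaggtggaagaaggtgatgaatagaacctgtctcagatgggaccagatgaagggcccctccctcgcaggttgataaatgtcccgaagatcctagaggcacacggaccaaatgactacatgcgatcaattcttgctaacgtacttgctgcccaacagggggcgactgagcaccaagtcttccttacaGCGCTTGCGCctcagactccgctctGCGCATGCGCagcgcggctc
Ndufb6: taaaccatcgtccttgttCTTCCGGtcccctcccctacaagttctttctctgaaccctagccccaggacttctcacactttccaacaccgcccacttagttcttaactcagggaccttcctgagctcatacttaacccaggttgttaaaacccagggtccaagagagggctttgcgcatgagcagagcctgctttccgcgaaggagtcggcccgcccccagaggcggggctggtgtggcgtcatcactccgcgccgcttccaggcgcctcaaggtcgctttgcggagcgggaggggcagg
The Uqcrh window held the reverse complement of the GABPA letters, beginning 10 bases before the start. The Sdhd window held NRF1 letters, GABPA letters and estrogen-related receptor letters. In Uqcrc1 there were NRF1 letters at 2 positions, and in Ndufb6 GABPA letters far upstream. The windows at the starts of Cox7a2l (gene at chr17:83501918-83517330, minus strand), which rose, and Atp5b (gene at chr10:128083273-128090391, plus strand), which fell, held none of the 4 motifs. Matches were therefore present among members that rose and among members that fell. Promoter windows were at hand for 67 members and 27025 genes in all. NRF1 letters were found in 17 members, which is 25.4% against 5.19% of all genes. GABPA letters were also found in 17 members, 25.4% against 9.93% of all genes. YY1 letters were found in 9 members, 13.4% against 3.19%, and estrogen-related receptor letters in 8 members, 11.9% against 5.38%. A match is a description of these letters and not a measured binding site.

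Libraries held 20851489 to 35143325 counts. The titles number the 2 libraries of a condition, while the column names of the counts all end in rep1. Nothing states that the 2 libraries of a condition came from separate cultures or animals, so the p-values below measure only the spread between these libraries, which may be technical. Fibroblast markers (6 genes such as Col1a1) summed to 25837 to 27195 CPM, counts scaled to library size, in Fib and 3.09 to 11.9 CPM in the cultures, with Thy1 at 0 in 2D-iHEs, iHLOs and iHEAs. Of 8 hepatocyte markers, 8 reached 1 CPM in adult liver and 5 in fetal liver, but 2 in each culture condition, where Serpina1a, Cyp2e1, Cyp3a11 or G6pc were at 0. The cholangiocyte and progenitor markers summed to 1050 to 1478 CPM in the cultures. Of 4 mouse endothelial markers Cdh5 made up nearly all of the sum, at 366 to 398 CPM in iHEAs against 428 to 446 CPM in iHLOs and 392 to 413 CPM in 2D-iHEs against 450.1 to 453 CPM in 2D-iHs, while Pecam1 and Kdr stayed under 1 CPM in all cultures and Tie1 reached 14.1 CPM. Adult liver differed from all other libraries in composition: its 100 largest genes took 52.1% to 53.0% of the counts, with Alb alone at 22.5% to 23.6%, against 16.0% to 22.9% for the 100 largest genes elsewhere. In these bulk samples fewer cells of a type and less RNA per cell cannot be told apart.

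Summed over all members, the level was lowest in Fib and highest in adult liver. On the scale of RPKM (reads per exon length and library size) after TMM scaling, which sets most genes of 2 libraries equal, the sum was 3002 ± 24.6 in Fib (SD, n = 2 in each condition). It was 4691 ± 12.4 in 2D-iHs, 4312 ± 226 in 2D-iHEs, 4356 ± 13.0 in iHLOs and 4272 ± 293 in iHEAs. Fetal liver stood at 6328 ± 192 and adult liver at 14016 ± 106. The 4 culture conditions lay close together, between Fib and fetal liver, and the sums of 2D-iHEs, iHLOs and iHEAs lay within their spread. Complex II was higher in both spheroid conditions than in both plate conditions by more than the spread between libraries, with 231 ± 0.232 in iHLOs and 234 ± 6.50 in iHEAs against 197 ± 0.120 in 2D-iHs and 184 ± 2.96 in 2D-iHEs. Its 4 genes did not move together, and the median of their log2 fold changes was -0.06. The sum of complex V went the other way, with 1079 ± 20.1 in iHLOs and 1055 ± 53.8 in iHEAs against 1324 ± 0.433 in 2D-iHs and 1196 ± 57.3 in 2D-iHEs. Its 17 genes did not move together either, and the median of their log2 fold changes was -0.0014. The order of the livers depended on the scale. As a share of all counts, members took 1.06% and 1.07% in adult liver and 1.30% and 1.37% in fetal liver, and 2.26% and 2.23% against 1.67% and 1.74% once the 100 largest genes of each library were left out. The corresponding shares of all counts were 0.583% and 0.576% in Fib and 0.820% to 0.929% in the cultures, so that Fib was lowest on every one of these scales.

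**Figure D1:**
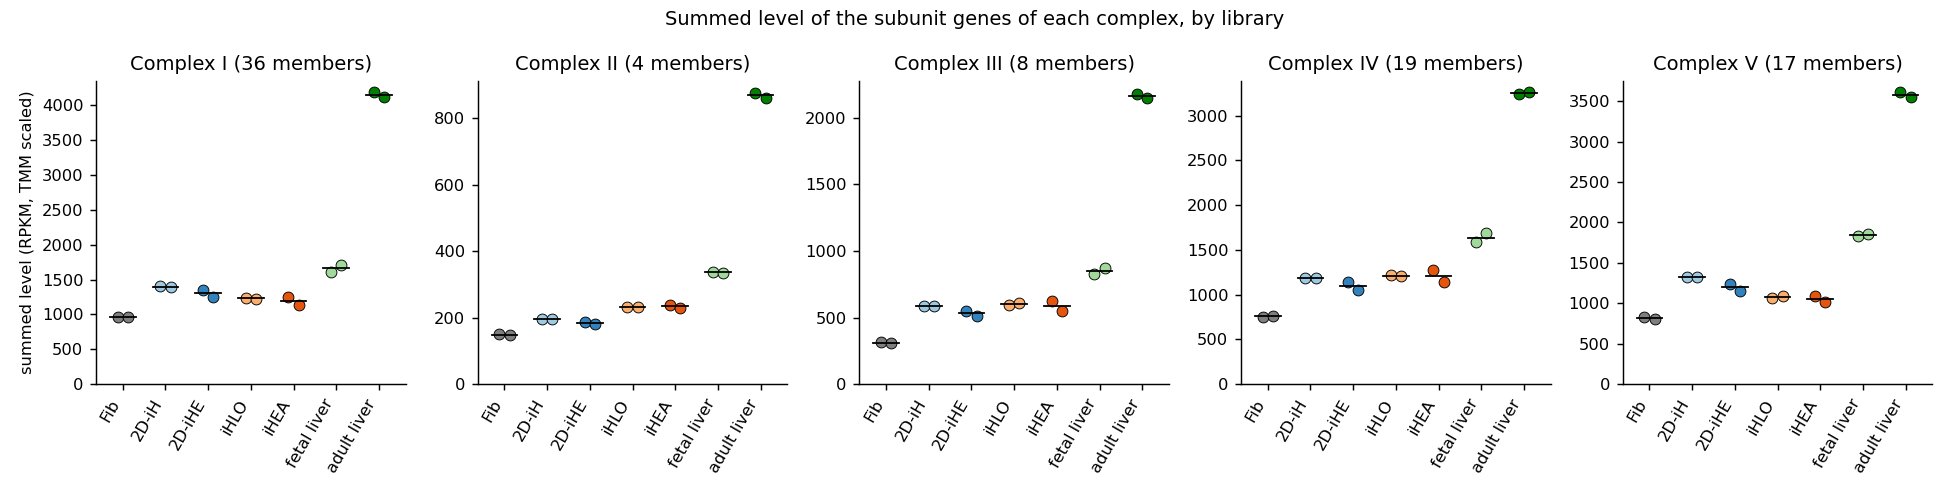
Summed level of the subunit genes of each complex in RPKM after TMM scaling (y axes from 0), with a point for each library and a bar for the mean of the 2 libraries of a condition. Adult liver stands highest in each panel on this scale, which counts per total did not bear out against fetal liver, and complex II is higher in the spheroids, at 231 and 234, than on plates, at 197 and 184.

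Of the 84 members, 79 passed the filter on low counts and were tested. The 5 that did not all belong to complex IV: Cox4i2, Cox6c2, Cox7b2, Cox8b and Cox8c. Cox4i2, the lung isoform, had 0 to 7 counts outside fetal liver and 24 and 26 counts in the fetal liver libraries. Cox8b, the muscle isoform, reached 6 counts in 1 fetal liver library and at most 2 elsewhere. Cox6c2, a member by its symbol that is annotated as a processed pseudogene, had at most 3 counts in any library and Cox7b2 at most 1. Cox8c was at 0 in all 14 libraries, which allows up to 3 counts in a library by counting error alone.

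The comparison of 2D-iHs with Fib asks how these genes differed between the converted cells and their cells of origin. Of the 79 members, 57 were higher and 10 lower in 2D-iHs by edgeR's quasi-likelihood test at a Benjamini-Hochberg adjusted p under 0.05. Over all tested genes 45.7% were called higher and 38.2% lower. The median log2 fold change was 0.56 for members and 0.11 for all genes. Setting the median of all genes to 0 gave 51 members higher and 13 lower. By complex, 26 members rose and 4 fell in complex I, 3 rose and 0 fell in complex II, 7 and 0 in complex III, 13 and 1 in complex IV, and 8 and 5 in complex V.

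Catalytic and electron-carrying subunits were among those that rose. Uqcrc1, a core protein of complex III, stood at 59.7 and 64.5 CPM in Fib and at 195 and 200.4 CPM in 2D-iHs. Atp5b, the catalytic β subunit of ATP synthase, stood at 559 and 552 CPM in Fib and at 1652 and 1647 CPM in 2D-iHs. Sdhb, the iron-sulfur subunit of complex II, stood at 28.3 and 28.5 CPM in Fib and at 86.9 and 90.8 CPM in 2D-iHs. The Fib and 2D-iH libraries did not overlap for any of these genes, and the log2 fold changes were 1.60 ± 0.064 (SE) for Uqcrc1 (adjusted p = 1.68e-12, edgeR), 1.50 ± 0.066 for Atp5b and 1.57 ± 0.070 for Sdhb. Uqcrq, a small subunit of complex III, rose most among abundant members, from 31.0 and 32.1 CPM to 135 and 139 CPM (log2 fold change 2.05 ± 0.077). Cox5a of complex IV rose by 1.69 ± 0.081 and Ndufs7, an iron-sulfur subunit of complex I, by 1.42 ± 0.080 on the same scale.

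The members that fell furthest were Cox6b2, Ndufb2 and Atp5mpl. Cox6b2 stood at 4.00 and 4.15 CPM in Fib and at 0.390 and 0.189 CPM in 2D-iHs, which is -3.84 ± 0.28 on the log2 scale (adjusted p = 2.53e-09, edgeR), or -4.47 without 2D-iH replicate 1. Ndufb2, an accessory subunit in the membrane arm of complex I, stood at 12.3 and 12.4 CPM in Fib and at 3.71 and 4.02 CPM in 2D-iHs (-1.75 ± 0.14). Atp5mpl, a small proteolipid of complex V, stood at 25.2 and 23.1 CPM in Fib and at 18.3 and 16.4 CPM in 2D-iHs (-0.55 ± 0.082). Fib was higher in each library for all 3. The muscle isoforms Cox6a2 and Cox7a1 rose from very low levels and remained low. Cox6a2 went from 0.134 and 0.287 CPM to 2.59 and 3.36 CPM (3.76 ± 0.42, or 4.34 without Fib replicate 2), and Cox7a1 from 0.215 and 0.160 CPM to 0.697 and 1.16 CPM (2.19 ± 0.48). Cox6a2 lies on exons shared with Itgad and Ndufb2 on exons shared with Braf, each on the opposite strand. The strand setting of the counting is not given in the sources used here, so the reads of such pairs cannot be told apart. Itgad had at most 7 counts in a library, while Braf had up to 3872.

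Partners of the chain were counted beside the same 45.7% of all genes higher and 38.2% lower in 2D-iHs than in Fib. Of 12 genes of the outer membrane and protein import, 12 were higher, led by Hspa9, the mitochondrial Hsp70, at 2.03 on the log2 scale. Of 13 citrate cycle enzymes, 12 were higher and 1 lower, with citrate synthase (Cs) at 1.76. Of 6 tested carriers and partners, 5 were higher and 0 lower, with cytochrome c (Cycs) at 1.50 and cytochrome c1 (Cyc1) at 1.57. Assembly factors were more divided, with 23 higher and 10 lower of 42 tested, and regulators, with 7 higher and 5 lower of 17, lay near the share of all genes. Of 6 fibroblast markers, 6 reached 1 CPM in Fib and 1 did in 2D-iHs, and their part in these differences was not tested.

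**Figure D2:**
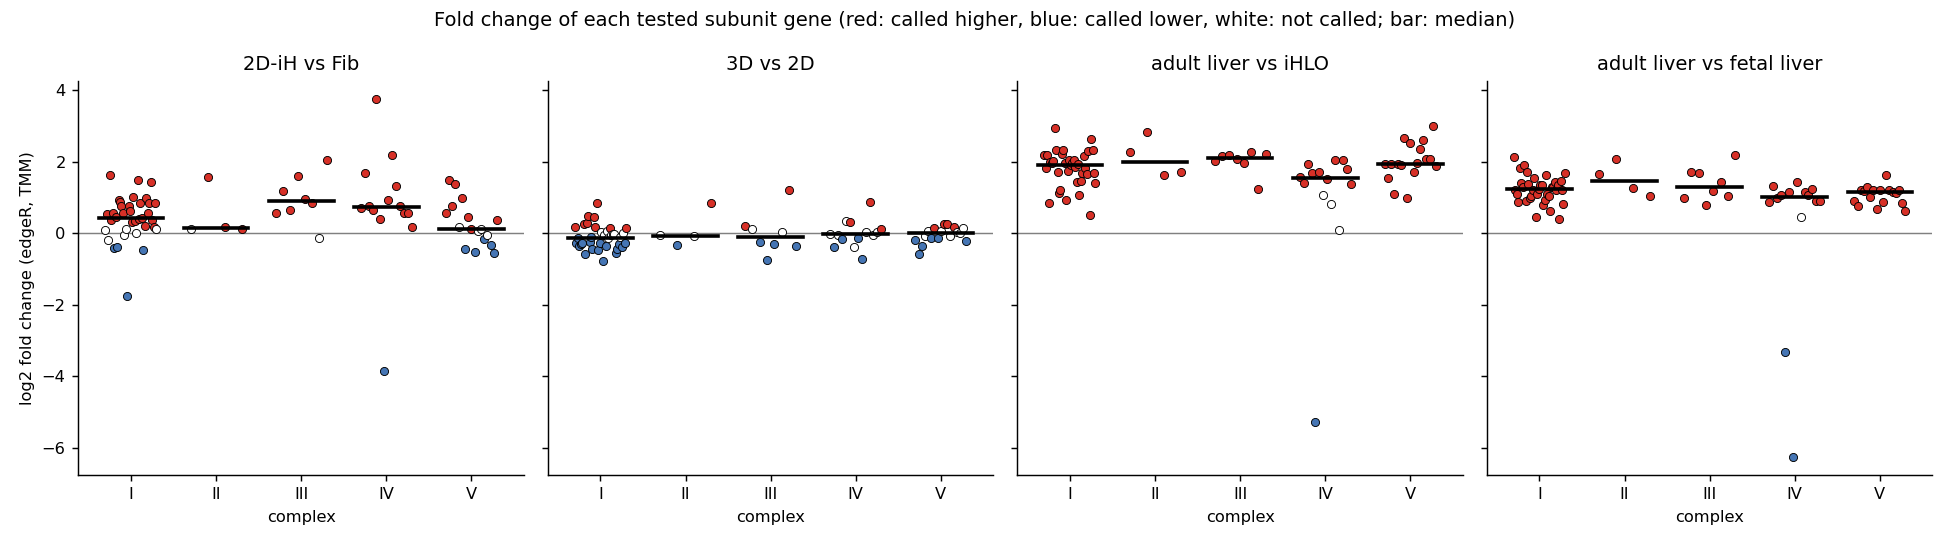
Log2 fold change of each tested member (a point) by complex in 4 comparisons after TMM scaling, with points in red where called higher, in blue where called lower and in white where not called, and a bar at the median. Members lie near 0 in 3D against 2D and almost all above 0 in the adult liver comparisons, where counts per total put 63 of 79 members below 0 against fetal liver.

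The comparison of spheroids with plate culture asks what differed between growth as spheroids and growth on plates, with iHLOs and iHEAs (4 libraries) set against 2D-iHs and 2D-iHEs (4 libraries). Plates and hydrogel also differed in matrix, and the paper describes an orbital shaker for the hydrogel cultures only. Shape, matrix and shaking thus cannot be told apart. Of the 79 members, 19 were higher and 33 lower in 3D by the same test, against 38.7% and 37.2% of all genes. In either direction 65.8% of members and 75.9% of all genes were called. Changes of members were small, with a median size of 0.20 on the log2 scale against 0.45 for all genes and a median direction of -0.05 against 0.01. Complex I had 9 members higher and 18 lower, complex II 1 and 1, complex III 2 and 4, complex IV 3 and 4, and complex V 4 and 6. Fibroblast, hepatocyte, endothelial and cholangiocyte and progenitor markers overlapped between the 2D and the 3D libraries in summed level, but other markers moved with the comparison. Fetal hepatic markers summed to 24.1 to 34.4 CPM in 2D and 15.5 to 17.4 CPM in 3D, and striated muscle markers to 0.705 to 0.975 CPM and 3.45 to 5.17 CPM. Single markers within an overlapping sum went both ways. Among cholangiocyte and progenitor markers, Epcam stood at 11.2 to 15.4 CPM in 2D and 211 to 335 CPM in 3D, Sox9 at 5.64 to 7.38 CPM and 0.948 to 4.93 CPM, and Krt19 at 671 to 949.9 CPM and 605 to 743 CPM. Among hepatocyte markers, Ttr stood at 1.29 to 2.80 CPM in 2D and 77.2 to 89.4 CPM in 3D, and Apoa1 at 282 to 322 CPM and 202 to 312 CPM. Their part in the members' differences was not tested.

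The members that rose furthest with no overlap were Uqcrh, Cox7a2l and Sdhd. Uqcrh, the hinge protein of complex III that binds cytochrome c1, stood at 84.3 and 79.5 CPM in 2D-iHs, 68.7 and 69.2 CPM in 2D-iHEs, 172 and 182 CPM in iHLOs, and 171 and 162 CPM in iHEAs. Every 3D library was above every 2D library, and the log2 fold change was 1.22 ± 0.062 (SE, adjusted p = 8.82e-09, edgeR). Cox7a2l, counted with complex IV by its symbol, stood at 124 and 123 CPM in 2D-iHs and 125 and 113 CPM in 2D-iHEs. In spheroids it stood at 218 and 218 CPM in iHLOs and 229 and 201 CPM in iHEAs. Its log2 fold change was 0.87 ± 0.041 (adjusted p = 4.85e-09, edgeR), again with no overlap. Sdhd, which anchors complex II in the membrane, stood at 95.2 and 93.9 CPM in 2D-iHs, 86.0 and 83.9 CPM in 2D-iHEs, 154 and 155 CPM in iHLOs, and 161 and 162 CPM in iHEAs. Its log2 fold change was 0.86 ± 0.045 (adjusted p = 1.24e-08, edgeR). Ndufb2 rose by nearly as much (0.85 ± 0.11) at a low level, with a mean of 3.68 ± 0.252 CPM in 2D and 6.45 ± 0.709 CPM in 3D (SD, n = 4).

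Apart from Sdhd, the core subunits described here fell or showed no change that passed the test. Uqcrc1 stood at 195 and 200.4 CPM in 2D-iHs, 199 and 186 CPM in 2D-iHEs, 118 and 116 CPM in iHLOs, and 119.7 and 104 CPM in iHEAs, which is -0.73 ± 0.042 on the log2 scale (adjusted p = 2.28e-08, edgeR). Atp5b stood at 1652 and 1647 CPM in 2D-iHs, 1494 and 1408 CPM in 2D-iHEs, 1005 and 1041 CPM in iHLOs, and 1024 and 966 CPM in iHEAs (-0.58 ± 0.050). In both genes all 3D libraries lay below all 2D libraries, so that complex III held both its hinge protein among the genes that rose and its core protein among those that fell. Ndufb6, an accessory subunit of complex I, stood at 24.7 and 25.5 CPM in 2D-iHs, 23.9 and 22.5 CPM in 2D-iHEs, 15.1 and 13.9 CPM in iHLOs, and 14.3 and 12.3 CPM in iHEAs (-0.76 ± 0.062). Its exons overlap those of Smim27 on the opposite strand, which had at most 28 counts. Ndufs8 and Ndufv2 of complex I (-0.38 ± 0.067 and -0.28 ± 0.044), Sdhb (-0.32 ± 0.053), Uqcrc2 (-0.29 ± 0.035) and Atp5a1, the α subunit of ATP synthase (-0.20 ± 0.043), also fell. Ndufs1, Ndufs3, Ndufs7 and Ndufv1 of complex I, Sdha, Sdhc and Uqcrfs1 did not pass the test, with log2 fold changes of -0.09 to 0.04. Within complex II, then, the membrane anchor Sdhd rose, the iron-sulfur subunit Sdhb fell, and Sdha and Sdhc were at -0.05 ± 0.036 and -0.07 ± 0.058.

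**Figure D3:**
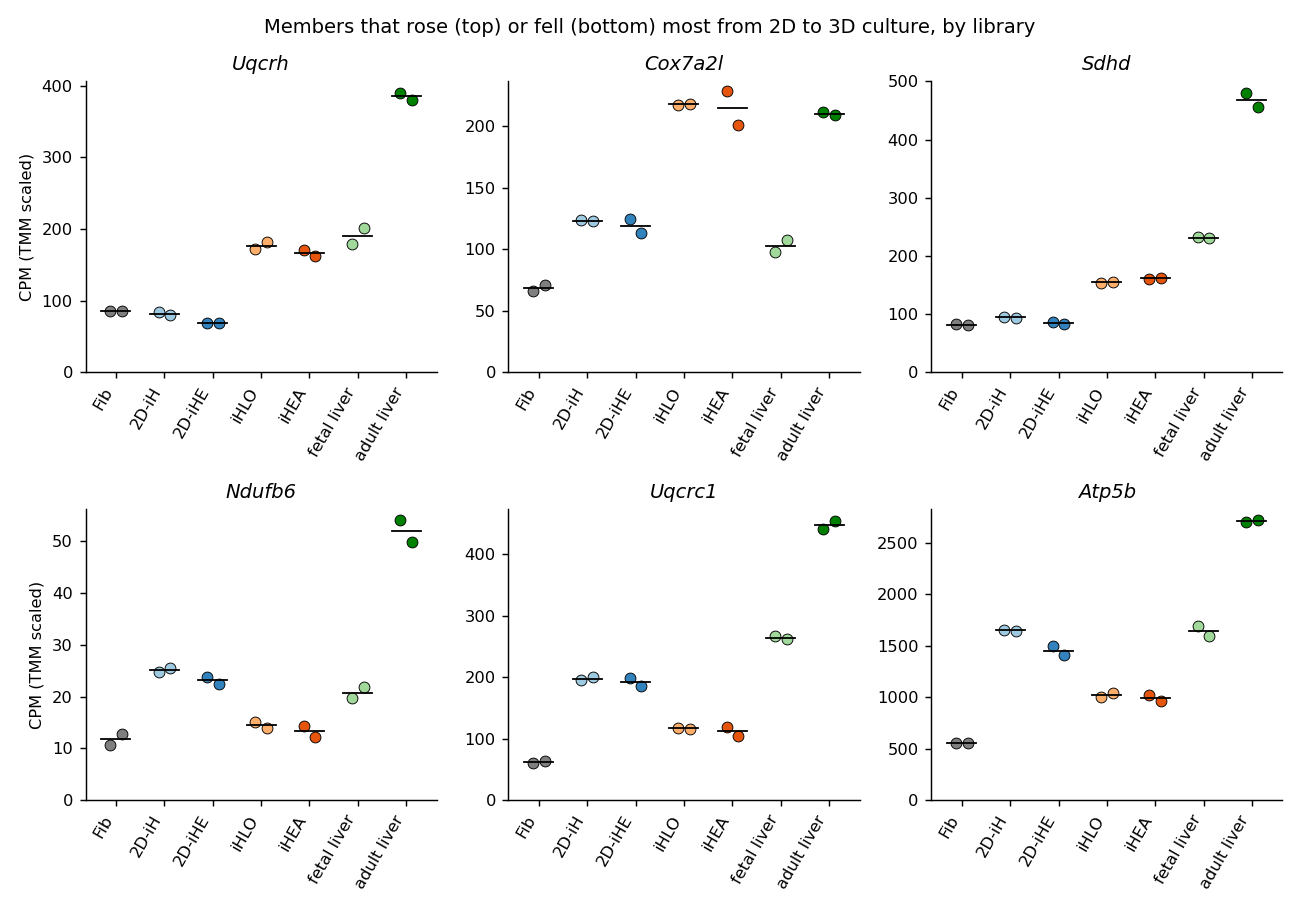
CPM after TMM scaling (y axes from 0) in each library (point), with the mean of each condition (bar), of the 3 members that rose most and the 3 that fell most from 2D to 3D culture with no overlap between libraries. For Uqcrh the 4 spheroid libraries sit between 162 and 182 CPM and the 4 plate libraries between 68.7 and 84.3 CPM, and for Uqcrc1 the spheroid libraries sit between 104 and 119.7 CPM, below the plate libraries.

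Spheroids and plates were also compared within the cultures without and with endothelial cells. In iHLOs against 2D-iHs 15 members were higher and 30 lower, against 36.9% and 35.3% of all genes (72.3% in either direction). In iHEAs against 2D-iHEs 19 were higher and 27 lower, against 36.0% and 34.9% of all genes (70.9% in either direction). The lower count moved to 17 when 2D-iHE replicate 1 was left out. Uqcrh was higher by 1.15 ± 0.052 without and 1.31 ± 0.053 with endothelial cells, Cox7a2l by 0.86 ± 0.056 and 0.88 ± 0.057, and Sdhd by 0.75 ± 0.045 and 0.96 ± 0.046 on the log2 scale. Uqcrc1 was lower by -0.72 ± 0.056 and -0.75 ± 0.056, and Atp5b by -0.65 ± 0.047 and -0.51 ± 0.047. The difference between these effects was tested as an interaction (edgeR). In it 0 members passed in either direction, against 1.52% and 1.62% of all genes, 3.14% in either direction. At an unadjusted p under 0.05, 9 members were higher and 0 lower, against 893 and 1141 of all 13409 genes. The members' median log2 difference was 0.086, against -0.0047 for all genes. For members it was 0.12 without the unnumbered iHEA library, 0.019 without iHEA replicate 1 and 0.086 without iHLO replicate 1. Its size thus turned on which iHEA library was kept. Cox7a1, the muscle isoform, fell from 1.39 and 1.04 CPM in 2D-iHEs to 0.605 and 0.390 CPM in iHEAs (-1.25 ± 0.37, adjusted p = 0.00891, edgeR), a call that was lost when 2D-iHE replicate 1 was left out (-1.04).

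The effect of adding endothelial cells was compared in spheroids and on plates. In iHEAs against iHLOs 0 members were higher and 0 lower by edgeR, against 1.19% and 1.07% of all genes. At an unadjusted p under 0.05 there were 0 members higher and 1 lower, against 836 and 866 of all 13409 genes. DESeq2's Wald test also called 0 members in either direction. The iHEA libraries differed from each other more than those of other culture conditions, with a chi-square of 10.9 per gene over all genes against 3.30 to 3.49. Without iHEA replicate 1 the members' median log2 fold change was -0.078, and without the unnumbered iHEA library it was 0.036. The direction thus turned on which iHEA library was kept. In 2D-iHEs against 2D-iHs 0 were called higher and 3 lower, against 4.26% and 3.92% of all genes (8.17% in either direction). At an unadjusted p under 0.05 there were 0 members higher and 21 lower, against 1524 and 1440 of all 13409 genes. The median log2 fold change was -0.089 for members and 0.0019 for all genes. By total counts the unadjusted counts of members were 1 and 11. The 3 calls became 8 lower with only these 4 libraries in the fit, where 1068 of all genes were higher and 978 lower. Without the unnumbered iHEA library they became 10 lower, beside 1030 of all genes higher and 972 lower. The main fit called 571 of all genes higher and 525 lower. Uqcrh was at 84.3 and 79.5 CPM in 2D-iHs and 68.7 and 69.2 CPM in 2D-iHEs (-0.22 ± 0.054, adjusted p = 0.0252, edgeR). Atp5f1, the b subunit of the ATP synthase stalk, was at 202 and 200.4 CPM against 176 and 169 CPM (-0.19 ± 0.047), and Cox7b of complex IV at 97.2 and 89.4 CPM against 80.2 and 80.3 CPM (-0.19 ± 0.054). The libraries did not overlap in any of the 3, but each of the 3 calls was lost when any single library of the 4 was left out. The log2 fold changes were then -0.26 to -0.18 for Uqcrh, -0.193 to -0.188 for Atp5f1 and -0.25 to -0.13 for Cox7b, and the library left alone in its condition was taken to vary like the other groups. Atp5f1 shares exons with Wdr77 on the opposite strand (up to 1801 counts in a library), and how many human reads entered the counts of the co-cultures was not analysed here.

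Citrate cycle, outer membrane and import genes were mostly lower in 3D than in 2D. Of 13 citrate cycle enzymes, 10 were lower and 1 higher in 3D, with malate dehydrogenase 2 (Mdh2) at -0.72, fumarase (Fh1) at -0.66 and citrate synthase at -0.64, while Idh3b was at 0.23. Of 12 outer membrane and import genes, 9 were lower and 0 higher, including Hspa9 at -0.76 and Vdac1, the outer membrane channel, at -0.51. Of 6 tested carriers and partners, 3 were lower and 0 higher, with Higd1a at -0.60 and Atpif1, the inhibitor of ATP synthase, at -0.27. Assembly factors split into 15 higher and 12 lower of 43. Of 16 tested regulators, 7 were higher and 2 lower, with the coactivator Ppargc1b at 3.40 and Esrra, an estrogen-related receptor, at 0.38 among the higher and Gabpb1, the partner of GABPA, at -0.95 among the lower. The lists hold genes of known function and the values are those of single genes, beside the shares of all genes given above.

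The livers were compared with each other and with iHLOs as the references of the study. In adult against fetal liver 76 of 79 members were higher and 2 lower after TMM scaling, against 40.0% and 43.8% of all genes, with a median log2 fold change of 1.20 for members and -0.10 for all genes. In adult liver against iHLOs 75 were higher and 1 lower, against 39.2% and 45.7% of all genes (84.9% in either direction), with medians of 1.94 and -0.13. These counts depended on how adult liver was scaled. Scaling by total counts, which moved the median of all genes by -1.42, left 12 members higher and 53 lower than in fetal liver, with a members' median of -0.23, where 2282 of all 14121 tested genes were higher and 10630 lower. Against iHLOs it moved the median of all genes by -1.43 and left 59 higher and 11 lower, with a members' median of 0.51, where 2588 of all genes were higher and 10457 lower. Totals without the largest genes, an alternative chosen after seeing the data, gave 69 members higher and 3 lower against fetal liver (3820 and 8504 of all genes) and 74 higher and 2 lower against iHLOs (4040 and 8402 of all genes). A scaling moves members and all genes alike, so the distance between their medians hardly changed, while whether most members were higher than in fetal liver on an absolute scale was decided by the scaling.

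The 5 scalings were TMM, DESeq2 size factors, the median of all genes set to 0, total counts, and totals without the largest genes. Against fetal liver 12 members were called higher under each of them: Sdha and Sdhb of complex II, Uqcrq, Uqcrb and Uqcr11 of complex III, Ndufa1, Ndufa4, Ndufa6, Ndufa13, Ndufb9 and Ndufv3, and Atp5j of complex V. How many of all genes were higher under each of the 5 was not counted. By total counts, which also left 12 of 79 members higher, 2282 of all 14121 genes were higher, a share near that of members. Sdhb stood at 430.3 and 439 CPM in adult liver and at 101 and 107 CPM in fetal liver (log2 fold change 2.09 ± 0.065, adjusted p = 6.09e-14, edgeR). Sdha, the flavoprotein that oxidises succinate, stood at 915 and 939.7 CPM in adult and 309 and 291 CPM in fetal liver (1.66 ± 0.055). Uqcrq stood at 424 and 426 CPM against 89.8 and 99.9 CPM (2.19 ± 0.074). Ndufa1, a small membrane-arm subunit of complex I, stood at 104 and 104 CPM in adult liver and 23.8 and 25.0 CPM in fetal liver (2.12 ± 0.069). Ndufa1 was between 19.6 and 26.3 CPM in all other libraries as well, so that adult liver alone stood apart.

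**Figure D4:**
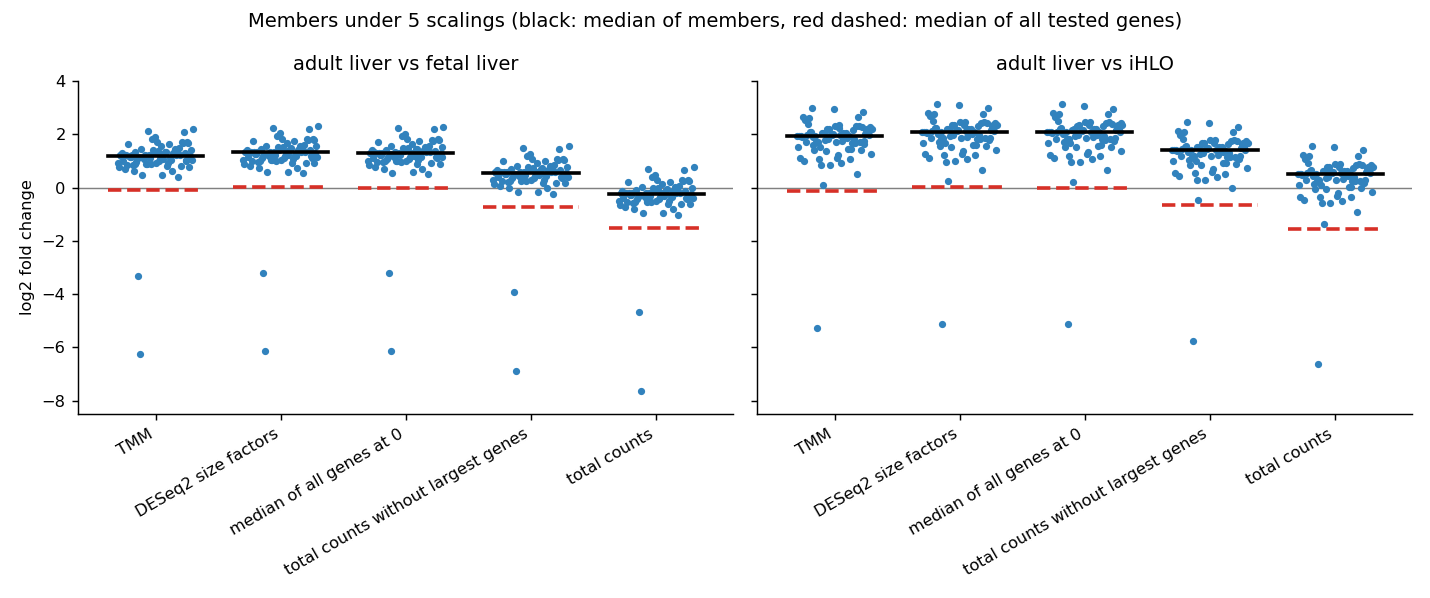
Log2 fold change of each of the 79 tested members (points) in adult against fetal liver and adult liver against iHLOs under 5 scalings, with the members' median in black and the median of all tested genes as a red dashed line. The distance between the 2 medians is nearly the same under any scaling by construction, and total counts move the members' median against fetal liver from 1.20 to -0.23.

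The other direction was taken by isoforms. Cox6b2 stood at 31.0 and 29.5 CPM in fetal liver, from 1054 and 912 counts, and at 0.262 and 0.507 CPM in adult liver, from 4 and 8 counts (-6.25 ± 0.26, adjusted p = 1.94e-12, edgeR). It was lower in adult liver under all 5 scalings. Cox6a2 had 66 counts in the 2 fetal liver libraries together and 3 in the adult liver libraries. After TMM scaling this was a ratio of 10.5 with an exact 95% interval of 3.45 to 52.4 that covers counting error only. Against the 273 counts of iHLOs the ratio was 43.6 (14.8 to 213). The fitted log2 fold changes moved from -3.32 against fetal liver and -5.26 against iHLOs by TMM to -4.67 and -6.62 by total counts. Fetal liver also carried erythroid markers at 31516 to 32295 CPM against 582 to 622 CPM in adult liver, and hepatocyte markers at 10449 to 13256 CPM against 538675 to 570545 CPM. Fibroblast markers stood at 1646 to 2771 CPM in fetal and 191 CPM in adult liver, and fetal hepatic markers at 12155 to 13957 CPM and 6.84 to 6.87 CPM. Of these markers G6pc was at 0 in 1 fetal liver library, and their part in these differences was not tested. Striated muscle markers differed between the fetal liver libraries, with sums of 23.8 and 111 CPM, beside which Cox6a2 stood at 0.736 and 1.33 CPM, Cox7a1 at 0.647 and 1.23 CPM and Cox6b2 at 31.0 and 29.5 CPM. Between the fetal liver libraries the chi-square was 12.7 per gene over all genes, the largest of any condition. The part of muscle RNA in the Cox6a2 ratio was not tested.

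Against iHLOs, 59 of 79 members were higher in adult liver under all 5 scalings. The number of all genes that were so was not counted, and by total counts 2588 of all 14121 genes were higher. Atp5mpl stood at 123 and 122 CPM in adult liver and 16.1 and 17.6 CPM in iHLOs (log2 fold change 3.00 ± 0.080, adjusted p = 9.01e-15, edgeR). Ndufa4, named for complex I and since assigned to complex IV, stood at 450.1 and 429.6 CPM against 59.9 and 65.0 CPM (2.95 ± 0.070). Sdhb stood at 430.3 and 439 CPM against 67.4 and 66.8 CPM (2.83 ± 0.068). After TMM scaling Cox7a2l was the member whose level in iHLOs came closest to adult liver, at 218 and 218 CPM in iHLOs against 211 and 209 CPM in adult liver (0.08 ± 0.067, adjusted p = 0.257, edgeR). By total counts other members were closest, such as Ndufb9 at 0.011, and Cox7a2l was lower in adult liver than in iHLOs, at -1.35, while DESeq2 size factors put it at 0.23 with a call.

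Partners of the chain in adult against fetal liver were counted beside the same 40.0% of all genes higher and 43.8% lower. Of 42 tested assembly factors, 34 were higher and 2 lower, and of 13 citrate cycle enzymes 11 were higher and 2 lower, with Suclg2 at 2.69 and citrate synthase at -0.90. Of 6 carriers and partners 5 were higher and 1 lower, the latter being Atpif1 at -2.52. Outer membrane and import genes divided into 5 higher and 4 lower of 12. Of 17 tested regulators 9 were higher and 4 lower, with Esrra at 1.76, Nrf1 at -2.06 and Gabpb1 at -1.76. These values are after TMM scaling and move with it as those of the members do.

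Within an isoform family the share of each gene does not depend on the scaling between libraries. Shares are given per length, as percent of the family's RPKM (mean ± SD, n = 2). Cox7a2l held 63.0% ± 0.0788 of the Cox7a family in Fib, 53.7% ± 0.510 in 2D-iHs and 54.2% ± 1.10 in 2D-iHEs, and 68.1% ± 0.0246 in iHLOs and 67.5% ± 0.345 in iHEAs. Its share was 36.8% ± 0.681 in fetal and 35.6% ± 0.512 in adult liver, where Cox7a2, the isoform of non-muscle tissue, held 62.3% ± 1.04 and 63.8% ± 0.636. Cox7a2 itself was at 64.1 ± 3.07 CPM in 2D and 64.4 ± 2.86 CPM in 3D (SD, n = 4), with a log2 fold change of 0.05 ± 0.042 that did not pass the test, so that the shift in share between plates and spheroids lay in Cox7a2l. Spheroids thus lay farther from the livers in this share than plate cultures did.

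Subunit c of ATP synthase, which forms the ring in the membrane, comes from 3 genes that encode the same mature protein. Atp5g2 held 50.6% ± 0.197 of the family in 2D-iHs, 52.4% ± 1.21 in 2D-iHEs, 48.1% ± 0.944 in iHLOs and 47.1% ± 1.21 in iHEAs. Its share was 42.7% ± 1.05 in Fib, 30.9% ± 0.00468 in fetal liver and 23.8% ± 0.00600 in adult liver. Atp5g3 was the leading gene in the livers, with 54.8% ± 0.0180 in fetal and 60.3% ± 0.273 in adult liver against 38.8% to 42.6% in the cultures, and it was higher in adult liver than in iHLOs by 2.52 ± 0.059 on the log2 scale. From Fib to 2D-iHs Atp5g2 rose by 0.47 ± 0.065 and Atp5g1 fell by 0.43 (SE 0.074). The cultures did not overlap with either liver in the share of Atp5g2.

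The minor isoforms of complex IV held small shares. Cox6b2 held 9.45% ± 0.541 of the Cox6b family in fetal liver and 3.02% ± 0.102 in Fib, and at most 0.172% on average in any other condition. Cox6a2 held 2.04% ± 0.316 of the Cox6a family in 2D-iHs, 2.98% ± 0.793 in 2D-iHEs, 3.27% ± 0.439 in iHLOs and 3.55% ± 0.566 in iHEAs, against 0.242% ± 0.120 in Fib, 0.567% ± 0.204 in fetal liver and 0.0263% ± 0.0128 in adult liver. The share of Cox6a2 was 1.82% and 2.26% in the 2D-iH libraries, below 2.42% and 3.54% in the 2D-iHE libraries, while 2D-iHEs, iHLOs and iHEAs overlapped from each to the next. In the remaining families 1 isoform held nearly all: Cox4i1 held 99.5% of its family on average in fetal liver and more in each other condition.

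**Figure D5:**
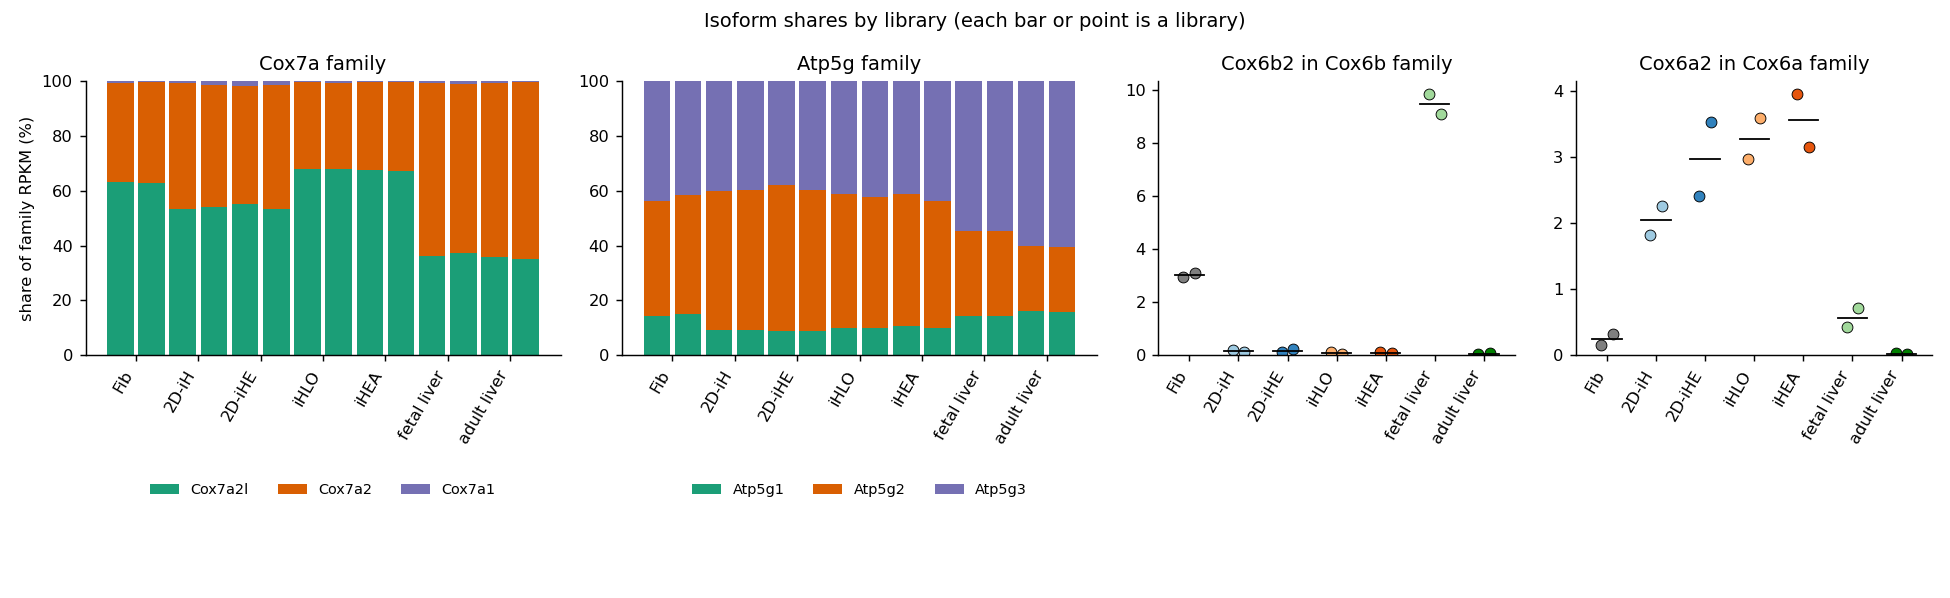
Share of each isoform in its family's RPKM (percent) by library: stacked bars for the Cox7a and Atp5g families, and points with a bar at the mean for Cox6b2 and Cox6a2. Cox7a2l takes 67.5% to 68.1% in spheroids and 35.6% to 36.8% in the livers on average, and Cox6b2 stands at 9.45% in fetal liver.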

How the data were processed

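Total RNA was sequenced as 150 bp paired ends. The authors deposited a table of raw counts per gene, made with Trimmomatic 0.36, HISAT2, Cufflinks and HTSeq on mm10 per the submitters' notes. The annotation release, strand setting and treatment of multiply aligned reads are not given in the sources used here. One iHEA column carried no clear replicate number. Genes entered a fit where log2(count + 1) averaged 3 or more over its libraries, and were tested with edgeR 4.0.16 (R 4.3.3; TMM, quasi-likelihood F-test, Benjamini-Hochberg adjusted p under 0.05), in a fit of the 8 culture libraries or, with Fib or livers, of all 14. CPM are TMM scaled, and RPKM use GENCODE exon lengths. Alternatives used DESeq2 1.42.0, other scalings, filters and samples, a replicate block, and each library left out. On simulated data 86.5% to 93.5% of 200 genes changed by 0.5 (log2) were recovered, and 2.75% to 5.08% of calls were false. The changed genes were well counted, and simulated libraries varied less than those of 3D against 2D (common variation 7.40%), so recovery in the data may be lower. Named genes were the isoform families, core subunits, up to 3 called members per comparison and direction with the largest change and no overlap, and members under the filter; 1 core subunit is not reported here. From the partner lists up to 4 genes a comparison were named. Members and lists were chosen with earlier results of these data known.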

Additional observations from a re-analysis of the deposited data

Results flagged for a closer look

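In the plate cultures the lowest of the 4 libraries for Cox7a2l, 2D-iHE replicate 2 at 113 CPM, stood away from the other libraries at 123 to 125 CPM, with a gap of 0.834 of the range of the 4 libraries. It was the 1 such value in 24 groups of 4 libraries, and chance gives about 1 in 20. This library also had the lowest total count.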

How the results depend on the processing

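Over 4 scalings, 2 other filters, another test, other samples and each library left out, the counts of members for 3D against 2D, iHLOs against 2D-iHs and 2D-iHs against Fib stayed within 1.5 times. For 2D-iHEs against 2D-iHs the lower count was 6 with no filter, 8 with only the groups compared and 0 with any of its 4 libraries left out. The lower count of iHEAs against 2D-iHEs ranged from 17 to 31 with each library left out, and the interaction from 0 to 3 higher. Adult against fetal liver gave 12 higher and 53 lower by total counts and 1 lower with the stricter filter. Adult liver against iHLOs gave 11 lower by total counts and 2 lower without the largest genes. Cox7a2l in adult liver against iHLOs turned to -1.35 by total counts and to -0.46 without the largest genes. The cause was not tested. Low counts limit Cox6a2, Cox6b2 and Cox7a1.

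In adult over fetal liver, the log2 ratio of summed levels was -0.10 in complex I, -0.054 in II, -0.072 in III, -0.43 in IV and -0.47 in V by total counts, and after TMM scaling the median over members of the difference in mean log2 RPKM was 1.21 in I, 1.44 in II, 1.27 in III and 1.11 in V. In 3D over 2D that median, scaled over all 14 libraries and so not that of the fitted values, was -0.10 in II, against a sum of 0.29 (0.35 by total counts), -0.13 in III, -0.063 in IV and -0.037 in V, the sum weighting abundant genes. As shares of counts, which favour long genes, Cox6b2 in fetal liver was 14.04%, Cox7a2l 77.1% in iHLOs and 46.5% in adult liver, and Atp5g2 38.9% in 2D-iHs and 15.9% in adult liver.

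Same-numbered libraries showed no strong common deviation (correlations of -0.168 to 0.180, iHEAs not included). This cannot settle whether same-numbered libraries were made together. With the replicate block, which drops the unnumbered iHEA library, 3D against 2D gave 19 higher and 26 lower, 2D-iHEs against 2D-iHs 1 higher and 8 lower and the interaction 1 higher; the same libraries without a block gave 10 lower and, for the interaction, 3 higher. A crossed block for 2D-iHEs against 2D-iHs, chosen after seeing the data because their correlation was -0.126, gave 1 member higher and 33 lower. Calls over all genes rose with it as well, to 1694 higher and 1799 lower of 13345, from 571 and 525 of 13409 in the main fit.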
